A study of Mus musculus with 2 samples.

Results

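Semaphorins, plexins and neuropilins, 31 of the 21896 genes measured, were described in RNA from the germinal layers of the mouse cortex at E13.5, that is, its ventricular zone and subventricular zone (VZ–SVZ). They were chosen by gene symbol alone, and comprise 20 semaphorins, 9 plexins and 2 neuropilins. One library, n = 1, came from Rcor2fl/fl embryos, the control, which carry LoxP sites around the first exons of both copies of Rcor2. The other, also n = 1, came from Rcor2cko embryos, which have the same floxed alleles together with NesCre, a Cre recombinase under the Nestin promoter that acts in neural progenitors and the cells they give rise to. Both are of the C57/BL6 strain and come from crosses of Rcor2fl/+NesCre parents, the floxed allele having been made from a LacZ gene trap by Flippase. By the study's names, NesCre is what sets Rcor2cko apart from Rcor2fl/fl. By their sex-linked RNA, given below, the libraries also differ in sex. How many embryos went into each library is not given in the sources used here. Rcor2 encodes a co-repressor that binds the histone demethylase LSD1.

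Semaphorins are guidance cues that repel or attract growing axons and migrating neurons. Class 3 members are secreted and mostly signal through a neuropilin, which binds the ligand, joined to an A-type plexin, which carries the signal into the cell through a domain that inactivates small GTPases of the Ras family. Members of classes 4, 5 and 6 span the membrane, class 7 is held in it by a lipid anchor, and most of these bind plexins directly. In the developing cortex this family is known for orienting axons and dendrites of projection neurons, for steering interneurons and for shaping blood vessels.

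The values are FPKM, that is, sequenced fragments relative to transcript length and to the size of the library, and the control's transcript values were summed per gene, on the assumption that the gene values of the Rcor2cko library are such sums. Log2 differences are those of the Rcor2cko library over the control, on (FPKM + 0.1). From the spacing of low values, the control was scaled to 18841684 fragments and the Rcor2cko library to 25479853. Of the 31 members, 24 have 1 transcript, and for all 24 the number of fragments behind the value could be recovered. A 95% exact interval of the log2 ratio of these fragments is called the counting interval here, and it covers counting error only. A count of 3 fragments, taken as the floor, corresponds to 0.0274 and 0.0203 FPKM for a transcript of 6000 nt. With 1 library per genotype, each difference has no replicate check and is a difference between 2 libraries. In bulk tissue, fewer cells of a type cannot be told apart from less RNA per cell. Rcor2 itself was at 90.6 FPKM in the control and 55.7 FPKM in the Rcor2cko library, values that include the exons outside the LoxP sites. Xist was at 177 and 0.109 FPKM, and Eif2s3y, on the Y chromosome, at 0 and 19.8 FPKM. Ddx3y, Kdm5d and Uty, also on the Y chromosome, were at 0.0239 and 8.10, 0.0101 and 7.04, and 0.0211 and 3.38 FPKM. By these genes the control RNA is female and the Rcor2cko RNA male. Sex thus goes with genotype, and in no gene can a difference of sex be told apart from one of genotype. Plxna3 and Plxnb3 lie on the X chromosome; Plxna3 did not reach 1.5-fold and Plxnb3 was near 0 in both libraries.

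Of the 31 members, 26 reached 1 FPKM in at least 1 library, and all 26 reached it in both. Plxna4, Plxnc1 and Plxnd1, all plexins, exceeded 1.5-fold on (FPKM + 0.1) with the higher value in the Rcor2cko library, and 0 members were more than 1.5-fold lower. These 3 of 26 make up 11.5%, against 3.79% higher and 1.76% lower among all 11777 genes past the same filter. In the 11331 genes that reached 1 FPKM in each of the libraries, which include the 26 members, the shares were 2.31% higher and 1.13% lower. The median log2 difference over the 26 members was 0.04, against -0.03 over all genes tested, with 14 members above 0 and 12 below. The other 5 members, Sema3b, Sema3d, Sema3e, Sema3g and Plxnb3, were under 1 FPKM in both libraries.

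**Figure D1:**
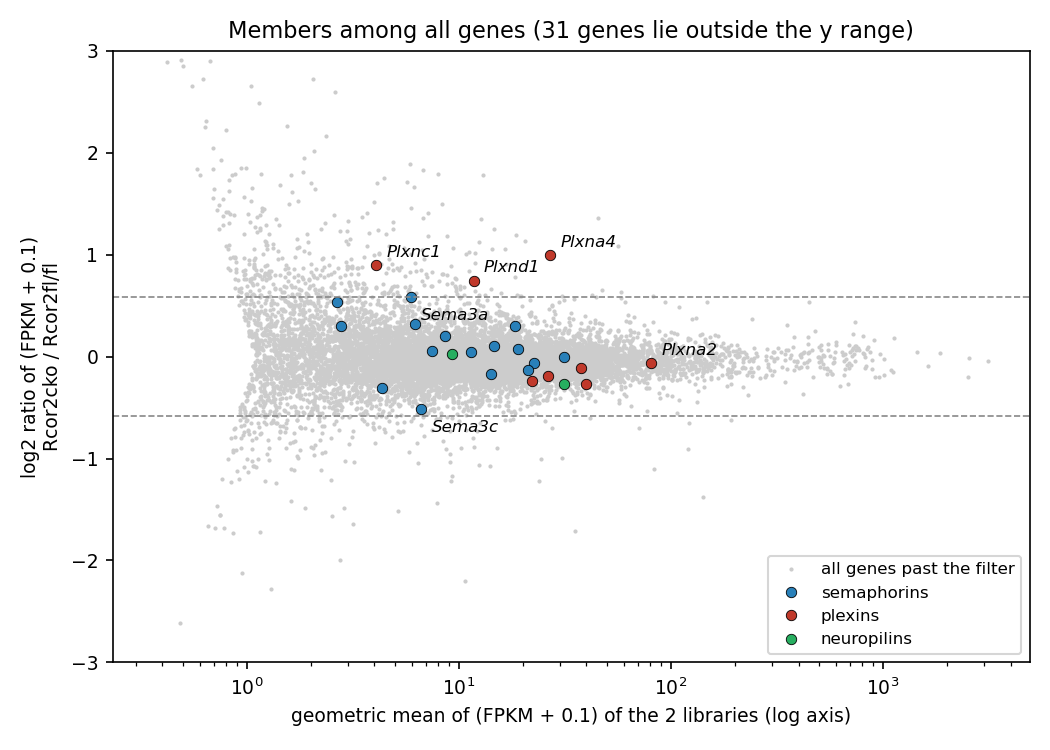
Each point is 1 gene, with the geometric mean of (FPKM + 0.1) of the 2 libraries on a log axis against the log2 ratio of (FPKM + 0.1), with Rcor2cko as the numerator. The dashed lines mark 1.5-fold, and 31 genes lie outside the plotted range; 3 plexins lie above the upper line and the 16 semaphorins past the filter lie between the lines.

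The genes of the 3 plexins lie on the minus strand of mm9. Plxna4 spans 32094559 to 32538192 and Plxnd1 115904829 to 115945023 of chromosome 6, and Plxnc1 94253612 to 94407212 of chromosome 10. Promoter sequences of 26 members, in 37 entries, were found in RefSeq on GRCm38.p6, those of Plxnc1 and Plxnd1 among them. Plxna4 had no entry. The 250 bases before the annotated start of Plxnc1 and of Plxnd1 are shown, since both genes were higher in the Rcor2cko library. They lie at chr10:94944846-94945095 and chr6:115995006-115995255, both on the minus strand of GRCm38.p6 and read 5′ to 3′. Capitals mark the GC-rich motifs GGGCGG and GGGCGTGG, known as binding sites of Sp and Klf factors, searched on both strands.
Plxnc1: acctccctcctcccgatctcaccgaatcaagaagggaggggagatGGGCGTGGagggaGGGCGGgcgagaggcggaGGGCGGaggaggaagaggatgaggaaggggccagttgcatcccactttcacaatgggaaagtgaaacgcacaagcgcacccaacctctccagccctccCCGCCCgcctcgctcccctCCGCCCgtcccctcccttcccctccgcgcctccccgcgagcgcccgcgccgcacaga
Plxnd1: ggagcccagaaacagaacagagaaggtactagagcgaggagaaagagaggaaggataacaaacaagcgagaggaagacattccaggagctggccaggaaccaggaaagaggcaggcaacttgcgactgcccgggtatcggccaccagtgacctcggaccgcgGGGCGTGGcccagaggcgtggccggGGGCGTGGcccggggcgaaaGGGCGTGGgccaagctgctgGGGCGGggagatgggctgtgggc
The Plxnc1 window held 4 copies of GGGCGG and 1 of GGGCGTGG, and the Plxnd1 window 1 and 3. GGGCGG was present in 32.7% of the 32851 promoter entries of this length and in 27 of the 37 entries of members. GGGCGTGG, chosen after the sequences were seen, was present in 4.79% of all entries and in 3 of the 37, and 3 or more copies in 0.0944% of all entries. Because of that choice, these shares do not measure how unusual the Plxnd1 window is. The Sema3a window held 0 copies of GGGCGG and 0 of GGGCGTGG. Neither motif holds the other, though their ends can overlap by 2 letters on a strand. The windows held 22 and 16 CG dinucleotides, against a median of 6 over all entries. Neither window held the TATA box TATAAA, which was in 12.4% of all entries and in 0 of the 37. Neither held the CCAAT box, in 33.8% of all entries and 7 of the 37, nor the homeodomain core TAATTA, in 4.84% and 0. The 8-letter left part of the element bound by REST, TCAGCACC, was in 1.32% of all entries and in 0 of the 37. Its right part, GGACAG, was in 18.7% of all entries and in 11 of the 37, but in neither window.

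A-type plexins are the signalling receptors of class 3 and class 6 semaphorins. Plxna4, which transmits Sema3a signals with Nrp1 and binds Sema6a and Sema6b, was at 18.9 FPKM in the control library and 37.8 FPKM in the Rcor2cko library. These values rest on 4410 and 11930 fragments, a log2 difference of 0.997 with a counting interval from 0.95 to 1.05. The 95% FPKM intervals given in the files, from 16.6 to 21.2 and from 32.4 to 43.2 FPKM, did not overlap. In the order of all 31 members by FPKM, Plxna4 was 10th in the control and 2nd in the Rcor2cko library.

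The 3 other A-type plexins were at slightly lower values in the Rcor2cko library. Plxna2, a receptor of Sema6a, had the highest value of all members in both libraries, at 82.2 and 78.6 FPKM, above 95.13% and 95.03% of all genes tested in the respective library. Its next neighbour in that order stood apart in both, with FPKM intervals that did not overlap. Plxna3, which works with neuropilins in Sema3f signalling, was at 39.4 and 36.3 FPKM, a log2 difference of -0.12. Plxna1, which binds Sema6d and Sema6c as well as class 3 complexes, was at 24.0 and 20.3 FPKM, a log2 difference of -0.24. The FPKM intervals of each of these 3 genes overlapped between the libraries, while their counting intervals lay below 0. Such counting intervals were common, since over all genes 14.0% of 8460 had one above 0 and 23.2% one below 0. Summed over the 4 A-type plexins the level was 164 FPKM in the control and 173 FPKM in the Rcor2cko library, of which Plxna4 made up 11.5% and 21.8%.

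**Figure D2:**
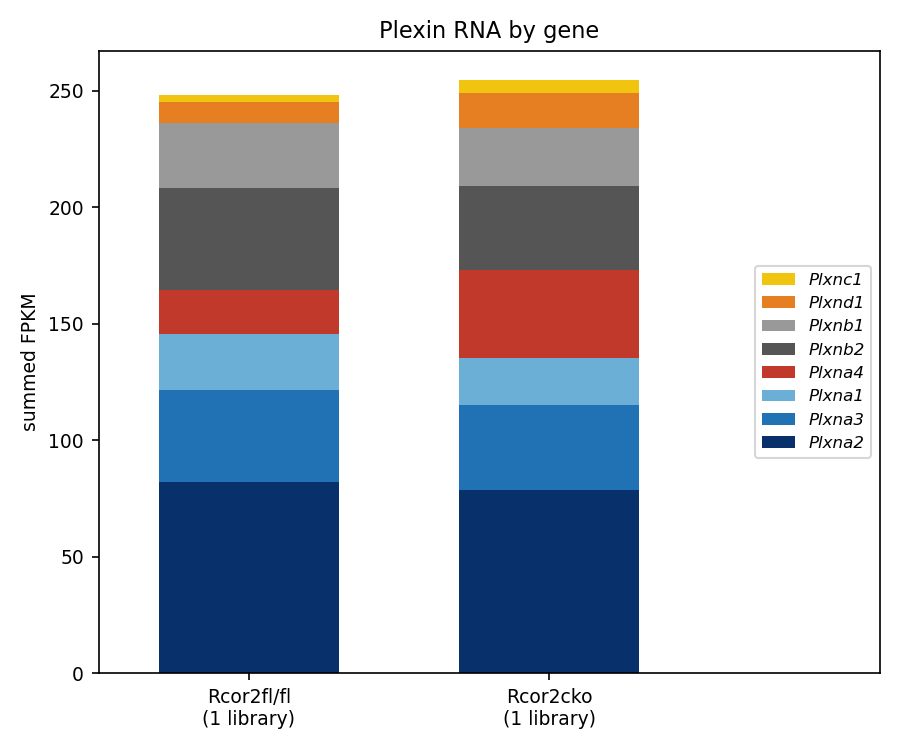
Summed FPKM of the 8 plexins past the filter in each library, with the level of each gene as a segment of the bar. Plxna4, Plxnd1 and Plxnc1 take larger segments in the Rcor2cko bar, while the sum over plexins is 248 FPKM in the control and 254 FPKM in the Rcor2cko library; there are no replicates and no error bars.

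Plxnc1, the receptor of Sema7a, was at 2.90 FPKM in the control, from 374 fragments, and 5.48 FPKM in the Rcor2cko library, from 955. This is a log2 difference of 0.90 with a counting interval from 0.74 to 1.09, and the FPKM intervals, 2.32 to 3.48 and 4.60 to 6.35, did not overlap. Plxnd1, the receptor that binds Sema3e without a neuropilin and is prominent in endothelial cells, was at 8.97 and 15.1 FPKM, from 1135 and 2580 fragments. It had a log2 difference of 0.74, a counting interval from 0.65 to 0.85, and FPKM intervals of 7.71 to 10.2 and 13.2 to 17.0. Both genes, like Plxna4, were thus higher in the Rcor2cko library with FPKM intervals that did not overlap and counting intervals above 0. Neither kind of interval covers variation between embryos.

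B-type plexins, receptors of class 4 semaphorins, were not past 1.5-fold. Plxnb2, which is needed in dividing neural progenitors, was at 43.7 and 36.2 FPKM, a log2 difference of -0.27. Plxnb1, the receptor of Sema4d, was at 28.1 and 24.6 FPKM, a log2 difference of -0.19 with a counting interval from -0.25 to -0.13. Plxnb3, known from oligodendrocytes and a receptor of Sema5a, had 6 fragments in the control and 3 in the Rcor2cko library, so that no difference was detectable at this depth (log2 ratio -1.43, counting interval -4.06 to 0.79).

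Neuropilins bind class 3 semaphorins and also VEGF. Nrp1, which prefers Sema3a, was at 34.3 FPKM in the control and 28.5 FPKM in the Rcor2cko library, a log2 difference of -0.27 with a counting interval from -0.33 to -0.20 and overlapping FPKM intervals. Nrp2, which prefers Sema3f and is strong in migrating interneurons, was at 9.11 and 9.30 FPKM, a log2 difference of 0.03. Neither was past 1.5-fold. Nrp2 came to 0.81 when its highest control transcript alone was set against the gene value of the Rcor2cko library. That value sets a part against a whole and is not a difference of the transcript.

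**Figure D3:**
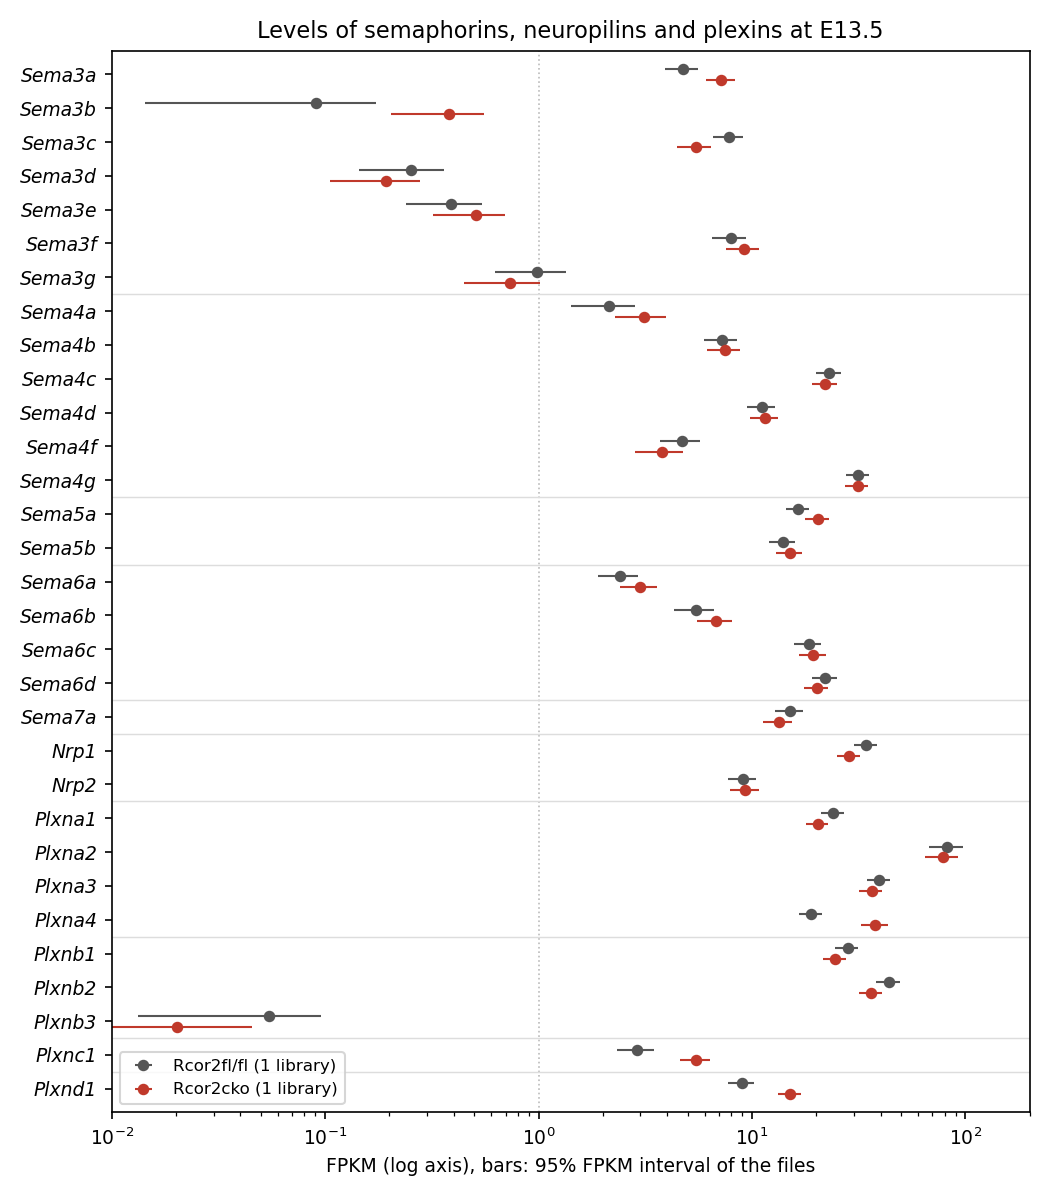
FPKM of the 31 members on a log axis in the Rcor2fl/fl library (grey) and the Rcor2cko library (red), grouped by class, with the 95% FPKM interval of the files as bars; bars that reach 0 end at the left edge. The dotted line marks 1 FPKM, and the points stand apart in Sema3a, Sema3b, Sema3c, Plxna4, Plxnc1 and Plxnd1.

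Of the 7 secreted class 3 semaphorins, 3 passed the filter, and these differed in direction. Sema3a, a repellent for axons and an attractant for the apical dendrite of cortical neurons, was at 4.75 FPKM in the control, from 514 fragments, and 7.17 FPKM in the Rcor2cko library, from 1048. Its log2 difference of 0.58 lies just under the 1.5-fold limit with the pseudocount, and its ratio without it, 1.51, just over. Its counting interval ran from 0.44 to 0.75 and the FPKM intervals did not overlap. Sema3c, an attractant for axons of the corpus callosum, was at 7.84 and 5.46 FPKM, from 703 and 661 fragments. This log2 difference of -0.51, with a counting interval from -0.68 to -0.37 and FPKM intervals that did not overlap, was the lowest of the 26 members. Sema3f, a repellent that acts through Nrp2, was at 7.96 and 9.16 FPKM, a log2 difference of 0.20 with a counting interval from 0.03 to 0.37.

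The 4 other class 3 genes were under 1 FPKM in both libraries. Sema3b was at 0.0909 FPKM in the control and 0.379 FPKM in the Rcor2cko library, with FPKM intervals from 0.0143 to 0.173 and from 0.203 to 0.556 that did not overlap. Its log2 difference was 1.33, at levels under the filter, and its fragments could not be recovered because it has 2 transcripts. Sema3g, which endothelial cells express, had 65 fragments in each library (0.988 and 0.732 FPKM), and Sema3d had 30 and 31 (0.252 and 0.193 FPKM). Sema3e had 49 and 86 fragments (0.390 and 0.507 FPKM). The counting intervals of Sema3d, Sema3e and Sema3g all include 0, so that no difference was detectable in them at this depth.

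By the FPKM intervals of the files, 4 of the 26 members (Plxna4, Plxnc1, Plxnd1 and Sema3a) were higher without overlap and 1 (Sema3c) was lower without overlap. Over all 11777 genes the corresponding shares were 2.26% and 1.21%. By counting intervals, which are narrower for highly expressed genes, 7 of 20 members lay above 0 and 7 below. Over all 8460 genes with such intervals, 14.0% lay above 0 and 23.2% below.

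**Figure D4:**
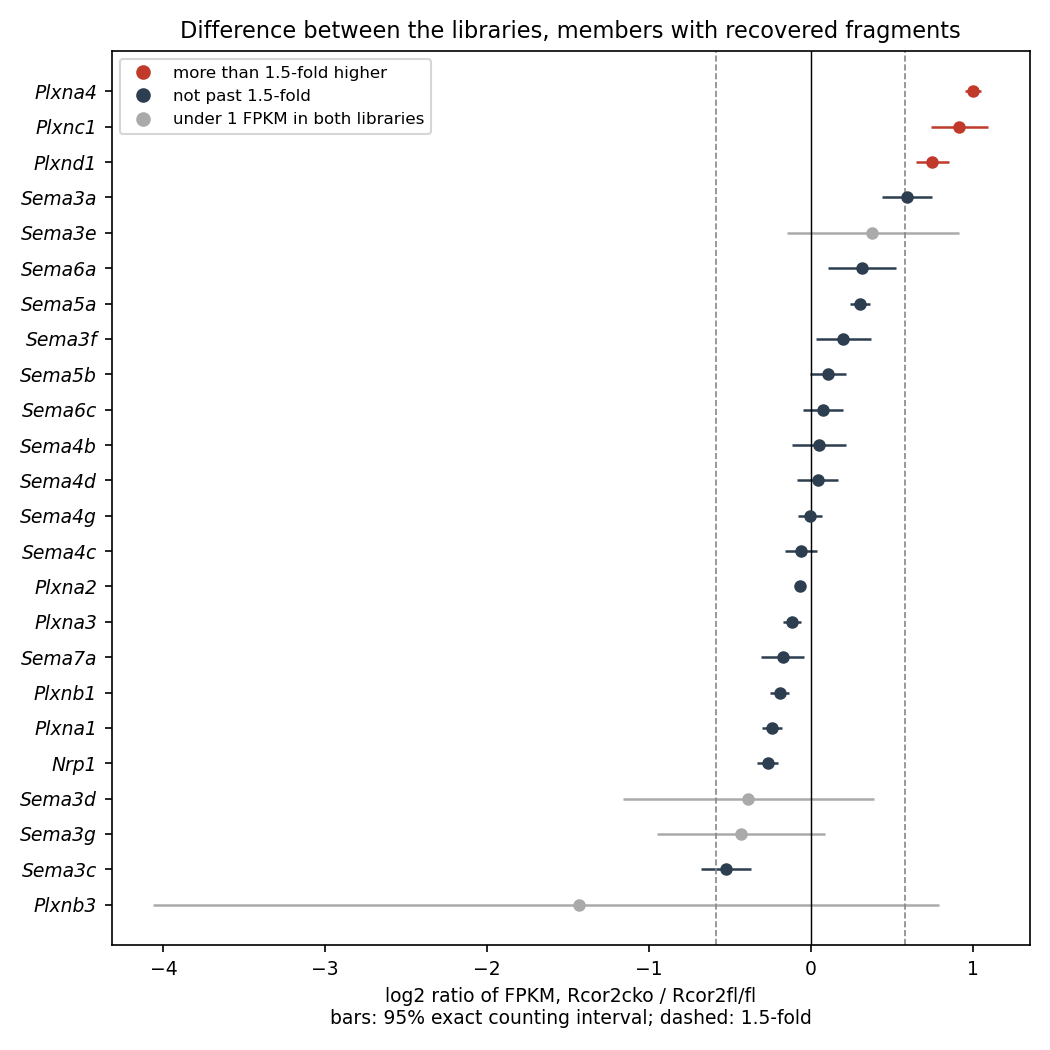
Log2 ratio of FPKM, with Rcor2cko as the numerator, for the 24 members with recovered fragments, with 95% exact counting intervals as bars and 1.5-fold as dashed lines. Plxna4, Plxnc1 and Plxnd1 lie wholly above the upper line, the interval of Sema3a spans it, and Plxnb3, with 6 and 3 fragments, has the widest interval.

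All 6 class 4 semaphorins passed the filter, and none was past 1.5-fold. Sema4g had the highest level among the semaphorins, at 31.4 FPKM in the control and 31.2 FPKM in the Rcor2cko library, a log2 difference of -0.01 with a counting interval from -0.08 to 0.07. Sema4c, a ligand of Plxnb2, was at 23.0 and 22.0 FPKM. Sema4d, a ligand of Plxnb1, was at 11.1 and 11.5 FPKM. These 3 genes, and Sema4b at 7.23 and 7.49 FPKM, have counting intervals that include 0 and stay within 0.22 of it on either side. Sema4f was at 4.70 and 3.79 FPKM, a log2 difference of -0.30. Sema4a, better known from immune cells, was at 2.13 and 3.12 FPKM, a log2 difference of 0.53, and its FPKM intervals overlapped (1.41 to 2.84 and 2.27 to 3.97). With its highest control transcript alone set against the gene value of the Rcor2cko library, a part against a whole, the difference was 1.33.

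Class 5 and class 6 semaphorins are transmembrane ligands, of which those of class 6 can also act as receptors. Sema5a, which carries thrombospondin repeats, was at 16.5 and 20.3 FPKM, from 3291 and 5492 fragments, a log2 difference of 0.30 with a counting interval from 0.24 to 0.37. Sema5b, its relative, was at 14.0 and 15.0 FPKM, a log2 difference of 0.10. The FPKM intervals of both overlapped between the libraries. Snord123 lies within the Sema5a locus, at 2.19 and 3.06 FPKM, and no other gene with a value above 0 overlaps a member.

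In class 6, Sema6c was at 18.4 and 19.4 FPKM and Sema6d at 21.99 and 20.05 FPKM, log2 differences of 0.07 and -0.13. The value of Sema6d depends on the sum over its transcripts, and turns to 0.82 when its highest transcript alone is set against the gene value of the Rcor2cko library. Sema6a, a ligand of Plxna2 and Plxna4 known from the guidance of corticospinal axons, was at 2.408 and 2.996 FPKM, a log2 difference of 0.30 with a counting interval from 0.11 to 0.52. Sema6b, another ligand of Plxna4, was at 5.45 and 6.81 FPKM, a log2 difference of 0.32. Overlapping FPKM intervals were found for all 4 genes. Sema7a, which promotes axon growth and is held at the surface by its lipid anchor, was at 15.0 and 13.3 FPKM, from 871 and 1042 fragments. It had a log2 difference of -0.17, a counting interval from -0.30 to -0.04, and FPKM intervals that overlapped (12.7 to 17.3 and 11.2 to 15.4).

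Set beside their receptors, the ligands named above for these 3 plexins did not reach 1.5-fold on (FPKM + 0.1). The one named for Plxnc1 lay on the other side of 0. Other ligands that these plexins may have were left out of this comparison. Sema7a had a log2 difference of -0.17, with FPKM intervals that overlapped, where Plxnc1 had 0.90. Sema3e, under 1 FPKM in both libraries, had 0.31 where Plxnd1 had 0.74, and its counting interval, -0.14 to 0.91, spans that of Plxnd1. Among the ligands named for Plxna4, with 0.997, Sema3a had 0.58, Sema6b 0.32 and Sema6a 0.30, all above 0. The sum over the 20 semaphorins was 195 FPKM in the control and 201 FPKM in the Rcor2cko library, and over the 11 receptors 292 and 292 FPKM.

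The 31 members can be ordered by level only coarsely. In the control library the FPKM intervals of neighbours overlapped in 26 of 30 cases, and in the Rcor2cko library in 27. The gaps common to both lie below Plxna2 and above Sema3g. Receptors held the 4 highest places in the control (Plxna2, Plxnb2, Plxna3 and Nrp1) and in the Rcor2cko library (Plxna2, Plxna4, Plxna3 and Plxnb2).

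For 7 members the control library gives several transcripts, and the Rcor2cko library gives the gene alone, so that transcript use could be described in the control and not compared. Nrp2 is known to be spliced into forms with different cytoplasmic tails. Of its 6 transcripts, the one of 6724 nt made up 57.9% of the sum, that of 6673 nt 25.7% and that of 4696 nt 13.7%. The 5 transcripts of Sema6d, with lengths from 6277 to 6502 nt, were all above 0, and the shortest made up 51.6%. Plxnb2 was given entirely to its transcript of 6497 nt, at 43.7 FPKM, with the one of 6432 nt at 0. Sema4a was divided between transcripts of 3125 and 3046 nt, at 1.18 and 0.947 FPKM, whose FPKM intervals overlap. Such divisions are estimates for transcripts that share most of their exons.

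**Figure D5:**
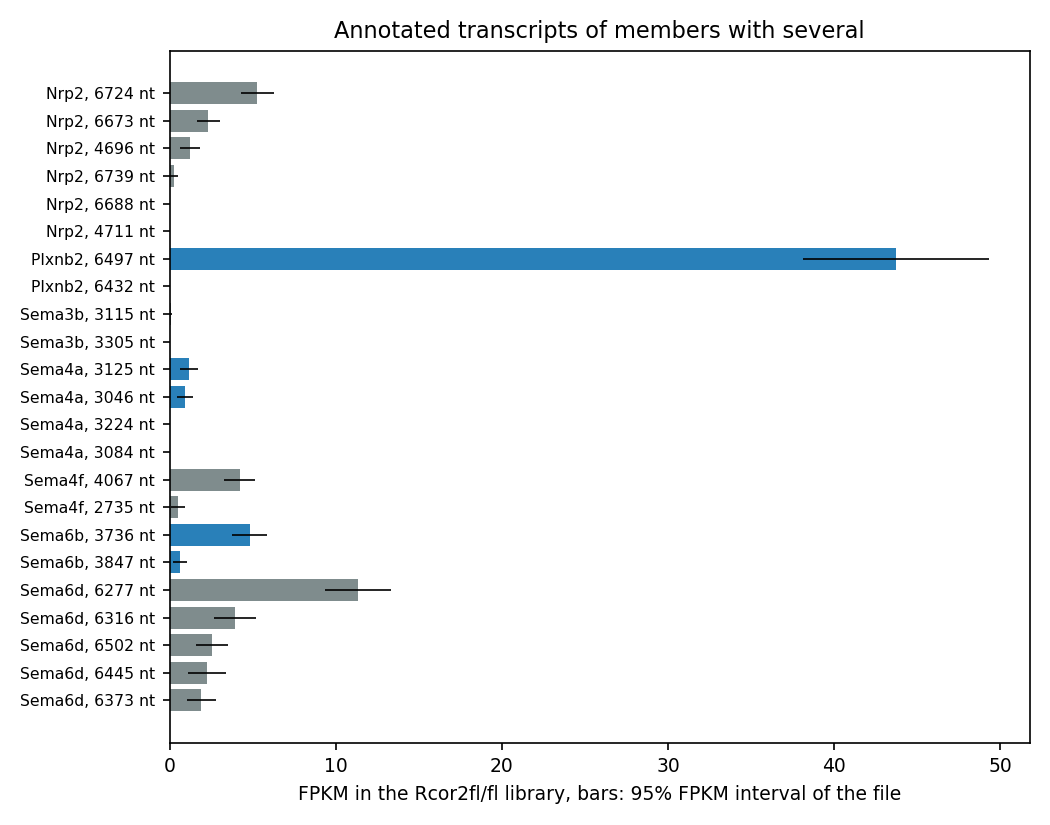
FPKM of each annotated transcript of the 7 members with more than 1, in the Rcor2fl/fl library, with the 95% FPKM interval of the file as bars; grey and blue alternate between genes. Sema6d and Nrp2 are divided among several transcripts, while Plxnb2 rests on 1 of 2 transcripts.

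Genes that act with these receptors were described from a list of 44, of which 41 passed the filter. None of the 41 was more than 1.5-fold higher or lower, and their median log2 difference was -0.05, with 17 above 0 and 24 below. The collapsin response mediators Crmp1, Dpysl2, Dpysl3, Dpysl4 and Dpysl5, which carry Sema3a signals to microtubules, include some of the highest values, with Crmp1 at 250 and 257 FPKM and Dpysl3 at 243 and 215 FPKM. Dpysl4, at 26.5 and 20.3 FPKM, had the lowest log2 difference of the 5, -0.39. L1cam, a partner of Nrp1, was at 55.6 and 48.8 FPKM, a log2 difference of -0.19. Of its relatives in the list, Nrcam was at 19.9 and 26.1 FPKM, a log2 difference of 0.39 that was the highest of the 41. Chl1 was at 46.9 and 55.4 FPKM, with 0.24 and a counting interval from 0.20 to 0.28. Farp1, an exchange factor for Rac bound by A-type plexins, was at 15.7 and 15.1 FPKM. Farp2, also in the list, was at 1.43 and 1.07 FPKM. Its log2 difference of -0.387, with a counting interval from -0.83 to -0.005, was the lowest of the 41. Itgb1, the integrin chain that Sema7a binds besides Plxnc1, was at 32.2 and 30.7 FPKM, a log2 difference of -0.07.

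VEGF ligands and receptors share the neuropilins with the semaphorins, and 6 of 8 passed the filter. Of these Pgf, a ligand of Nrp1 and Flt1, was more than 1.5-fold higher, at 0.733 FPKM in the control and 1.72 FPKM in the Rcor2cko library, a log2 difference of 1.13 with a counting interval from 0.47 to 2.06. Pgf passed the filter only through the Rcor2cko library, where it is high, and of the 5 genes of the list at 1 FPKM or more in both libraries 0 exceeded 1.5-fold. Vegfa was at 14.9 and 15.9 FPKM, and its receptor Kdr at 4.81 and 4.95 FPKM. The list had a median log2 difference of 0.07.

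The ephrin, Slit-Robo and netrin families are the other large sets of guidance genes, with 41 genes found by symbol and 29 past the filter. Of these 1 (3.45%), the netrin receptor Unc5a, was more than 1.5-fold higher, at 7.40 and 12.1 FPKM, and 0 were lower. Their median log2 difference was 0.03, beside 0.04 over the semaphorins, plexins and neuropilins. With 1 library per genotype the difference between the families was not tested.

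Markers of the labelled tissue were present, since all 9 radial glia markers and all 6 markers of intermediate progenitors passed the filter, with medians of -0.02 and 0.00. Their summed levels were 890 and 301 FPKM in the control and 1038 and 297 FPKM in the Rcor2cko library. The 11 markers of cortical projection neurons also passed, with larger sums of 1906 and 1831 FPKM and a median of -0.04. RNA of neurons was thus present as well as that of progenitors. Other lists differed between the libraries along with the 3 plexins. Of 14 ventral telencephalic markers 13 passed and 11 were more than 1.5-fold higher, with summed levels of 46.7 FPKM in the control and 98.1 FPKM in the Rcor2cko library. Of these, 4 (Dlx6, Gsx2, Isl1 and Six3) passed only through the Rcor2cko library and had to be higher there, and 3 of them were listed at 0 in the control. Among the 9 at 1 FPKM or more in both libraries 7 were higher, among them Dlx2 at 2.96 and 11.2 FPKM and Gad2 at 2.33 and 8.10 FPKM. Of 7 microglial markers 6 passed and 4 were higher, with sums of 11.2 and 18.5 FPKM. Csf1r, at 2.67 and 4.32 FPKM, and P2ry12, at 1.09 and 2.39 FPKM, were among the 4. Aif1, at 1.32 and 1.40 FPKM, and Cx3cr1, at 1.89 and 2.35 FPKM, were not past 1.5-fold. Choroid plexus markers had sums of 0.687 and 61.5 FPKM, nearly all of it from Ttr, listed at 0 in the control and at 57.8 FPKM in the Rcor2cko library. Ttr and Kcne2, at 0.142 and 1.498 FPKM, passed only through the Rcor2cko library and had to be higher there, and 2 of the 6 genes were listed at 0 in the control. All 6 Cajal-Retzius markers past the filter, of 8, were lower, 1 of which (Lhx5) passed only through the control, with sums of 59.8 and 28.0 FPKM. The part of these lists in the plexin values was not tested.

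Endothelial markers, read beside Plxnd1, did not pass 1.5-fold in any of 8 cases, with sums of 31.4 and 34.3 FPKM and a median of 0.19. Of these 8, 7 lay above 0 and 1 below. Pericyte markers had sums of 15.7 and 20.4 FPKM and a median of 0.40, with 0 of 4 past 1.5-fold and all 4 above 0. The part of endothelial cells and pericytes in the Plxnd1 values was not tested. Erythroid markers had sums of 89.4 and 80.6 FPKM, with 0 of 4 past it. Markers of meningeal fibroblasts were low, with 0 of 7 past the filter, sums of 2.04 and 2.35 FPKM, and 1 listed at 0 in the control. Among them the collagens Col1a1, from 6 and 27 fragments, and Col1a2, from 24 and 73, had counting intervals above 0 (0.43 to 3.30 and 0.49 to 1.90). Dcn lay on the other side, at 0.533 and 0.0985 FPKM, a log2 difference of -1.67 without recovered fragments. The counting intervals of Col3a1, Lum, Foxc1 and Foxd1 include 0.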

How the data were processed

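RNA was measured in 1 Rcor2fl/fl and 1 Rcor2cko library. The authors used RNeasy columns and the KAPA stranded mRNA kit, mapped reads with TopHat at default settings to mm9 and used Cuffdiff. The submitters' processing notes list TopHat 1.3.3 and Cufflinks 1.2.0, and the TopHat version in the paper differs. Whether counting used strand is not given in the sources used here. The deposited values are FPKM with a 95% FPKM interval, per RefSeq transcript in the Rcor2fl/fl library (27641 rows) and per gene in the Rcor2cko library (21896 rows). Transcript lengths in nt, deposited with the Rcor2fl/fl values, are of unit other.

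Transcript rows were summed per gene, and interval half-widths combined as the root of their summed squares. Genes reaching 1 FPKM in either library were compared by the log2 ratio of (FPKM + 0.1), which understates differences of low genes, and called past 1.5-fold. Fragments were recovered for 14350 genes of 1 transcript of at least 1000 nt with status OK, by fitting a length offset (194 and 201 nt) and a step to genes with 1 fragment. Of the values of up to 100 fragments, 99.3% and 99.4% lay within 0.1 of a whole number. Recovery was tested on simulated data. Intervals are Clopper-Pearson, conditional on the fragments of both libraries, without a pseudocount. No p-value was computed. Gene positions come from the deposited loci, counted from 1, and strands from GENCODE vM1 on NCBIM37, the same assembly as mm9, where all 31 members were found at the locus. RefSeq promoters are on GRCm38.p6, and the builds were not mixed.

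All members were named, with those of the partner and VEGF lists past 1.5-fold; a few other partners, Unc5a and genes of the marker lists were named after their values were seen. Map2 and Arhgap35 were found as Mtap2 and Grlf1. The members and lists were chosen with earlier results of these data known. Python 3.11.15, numpy 2.4.6, pandas 2.3.3, scipy 1.17.1 and matplotlib 3.10.9 were used.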

Additional observations from a re-analysis of the deposited data

How the results depend on the processing

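Of 12 alternatives, set with earlier results known, the number of members more than 1.5-fold higher, 3 as reported, moved past 1.5 times under 2. It was 0 above 2-fold, where Plxna4 falls just short with the pseudocount, and 6 with the highest transcript row per gene, which lowers the Rcor2fl/fl library only and adds Nrp2 (0.81), Sema4a (1.33) and Sema6d (0.82). It was 4 with a pseudocount of 0.01, with median scaling and with upper-quartile scaling, each of which adds Sema3a, and 4 without a filter, which adds Sema3b. Plxna4, Plxnc1 and Plxnd1 stayed past 1.5-fold under the pseudocount and scaling alternatives. The filter and status alternatives can drop a gene but not change its ratio, and these 3 genes were kept. The stricter filter, set at 5 FPKM, was met by Plxnc1 through the Rcor2cko library alone (5.48 FPKM, and 2.90 FPKM in the control). Keeping Plxnc1 under that filter thus follows from its difference and is no check of it. The row alternative could not change these 3 genes, since each has 1 transcript. The number of members lower was 0 under all 12. The median over members ranged from 0.03 to 0.07. The number of signalling partners higher, 0 as reported, was 1 without a filter (Met, under 1 FPKM) and 2 with the highest row per gene, and the number lower was 0 throughout. Median and upper-quartile scaling raise log2 differences by up to 0.04 and 0.03, and by less in low genes because of the pseudocount. Depth limits Plxnb3, Sema3b, Sema3d, Sema3e and Sema3g most. No paired analysis was possible because each genotype has 1 library, which also means that none could be left out.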
